A study of Caenorhabditis elegans with 2 samples.

Results

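The SIN-3 and NuRD histone deacetylase complexes were examined as possible targets of ARID-1 binding at their own genes. The members are 10 genes named by symbol, arid-1, sin-3, athp-1, mrg-1, hda-1, hda-2, hda-3, lin-53, let-418 and lin-40, of 19973 protein-coding genes on the nuclear chromosomes. All 10 symbols were found once in the annotation. ChIP-seq, which sequences the DNA recovered with an immunoprecipitated protein, was done on whole Caenorhabditis elegans of strain RW12194, whose arid-1 gene on chromosome V carries TY1, EGFP and 3xFLAG tags placed by CRISPR at the native locus. The worms were L4 larvae aged 47 hours, grown from starved newly hatched larvae, and an antibody against GFP was used. There were 2 biological replicates and 1 group, so the values describe where tagged ARID-1 was found and no condition was compared. Whole animals were used, so tissues cannot be told apart. No control library was analysed here.

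Histone deacetylases remove acetyl groups from histone tails and act within larger assemblies. In the SIN3 complex the SIN3 scaffold holds a class I deacetylase with proteins that contact chromatin, while NuRD joins a deacetylase to an ATP-dependent remodeller of the Mi-2 family and to MTA proteins. In the worm, these complexes are known for repression of germline and vulval genes in development. A histone-binding protein of the RbAp family, LIN-53 in the worm, is shared by several such complexes.

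Binding was called from the series' conservative list (2330 peaks, 2306 of them nuclear). Each of them appears in a longer ranked list of the series with a −log10 irreproducible discovery rate (IDR) of at least 2. A low IDR, and so a high −log10 value, marks a peak whose rank is reproducible. A gene was called at a 5' end where a summit came within 500 bp of any of its annotated transcript starts, and separately where a summit lay inside the gene. Signal is the authors' own value per peak, and how it was scaled in each list is not stated in the labels. At 2261 nuclear conservative peaks found in both replicates' ranked lists, the median log2 ratio of replicate 2 to replicate 1 was 0.11 with an SD of 0.43. No read counts accompany the lists, so the depth is unknown.

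Of the 10 deacetylase complex genes, 2 had a summit at a 5' end, mrg-1 and lin-53, which is 20% against a background of 6.12% of all protein-coding genes. With summits inside the gene added, hda-2 and lin-40 joined them, making 4 of 10 genes (40%) against 8.34% of all genes. A longer gene has more sequence in which a summit can lie, and the 10 genes run from 1565 bp (lin-53) to 15131 bp (arid-1). Gene length was not matched here or in later counts inside genes. The other 6 genes had no conservative summit by either rule. No test was made on these counts, since the genes were chosen with earlier results of these data known.

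**Figure D1:**
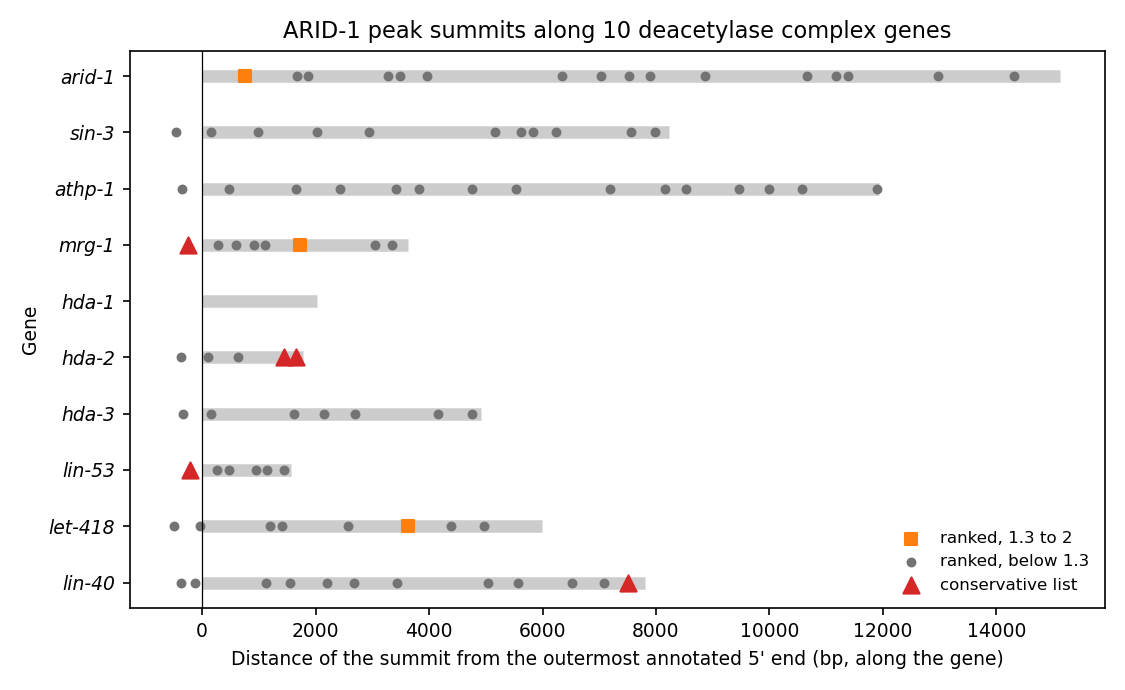
Summits of series peaks along the 10 genes, with bp from the outermost annotated 5' end on the horizontal axis and 1 row per gene. Grey bars are the annotated genes, red triangles are summits of the conservative list, orange squares are ranked peaks with a −log10 IDR between 1.3 and 2, and grey dots are lower ranked peaks. Red triangles lie upstream of mrg-1 and lin-53 and near the far end of hda-2 and lin-40, and hda-1 has no ranked peak.

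The sequences under 4 of the peaks are shown so that a promoter peak, peaks in gene bodies and the best peak of arid-1 itself can be compared. They were read from the plus strand of WBcel235, the assembly whose coordinates are those of ce11, through the RefSeq copy of the genome. Capitals mark matches, on either strand, to any of 9 motifs searched. These were the repeat GAGAG, the E-box CACGTG, the GATA-factor motif GATAA, the TATA-box motif TATAAA, the splice acceptor motif TTTCAG, the pyrimidine run TTTTCTT, the repeat GCGCGC, the AP-1 motif TGACTCA and the AT-rich motif AATTAA. The mrg-1 sequence is the whole conservative peak at chrIII:12874842-12874926, with the summit at base 57. The others are 101 bp centred on the summit, at chrII:8021073-8021173 for hda-2, chrV:186866-186966 for arid-1 and chrV:5830416-5830516 for let-418. The peaks of arid-1 and let-418 are ranked peaks that did not reach the conservative list. The hda-2 sequence is at the second of its 2 overlapping peaks, which no ranked peak of replicate 1 overlapped. The summit of the replicate 2 peak there, at 8020980, lies outside the printed sequence.
mrg-1: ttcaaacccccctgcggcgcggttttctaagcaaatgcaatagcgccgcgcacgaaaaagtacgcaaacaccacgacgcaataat
hda-2: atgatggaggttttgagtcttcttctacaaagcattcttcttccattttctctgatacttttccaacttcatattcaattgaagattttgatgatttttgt
arid-1: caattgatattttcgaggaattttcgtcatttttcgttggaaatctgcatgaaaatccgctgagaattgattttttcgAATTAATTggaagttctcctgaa
let-418: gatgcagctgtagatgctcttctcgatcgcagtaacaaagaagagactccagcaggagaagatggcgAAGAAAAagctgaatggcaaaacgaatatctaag
The printed mrg-1 and hda-2 sequences held none of the motifs, while 101 bp around the first hda-2 summit, not printed, held AATTAA. The capitals in arid-1 are AATTAA matched on both strands at overlapping positions, and those in let-418 are TTTTCTT on the minus strand. GC made up 51.8% of the mrg-1 sequence, 44.6% of let-418, 32.7% of arid-1 and 30.7% of hda-2. For 101 bp windows at conservative peaks at protein-coding 5' ends the median was 48.5%. The mrg-1 sequence is shorter than these windows, and those of hda-2 and let-418 lie in gene bodies.

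The mrg-1 gene (WBGene00003406, chromosome III, 12871029 to 12874656, minus strand), which encodes a chromodomain protein of the MRG family, carried one of the promoter peaks. Its summit lay 242 bp upstream of the nearest mrg-1 5' end, in intergenic sequence. Signal at this peak was 55.8 in replicate 1 and 85.9 in replicate 2, a mean of 70.9 ± 21.3 (SD, n = 2). The replicates' own summits were 1 bp apart, and the peak was in the thresholded list of either replicate. Its −log10 IDR was 4.69, and its signal of 139 in the series list ranked 133 among the 1045 nuclear conservative peaks at protein-coding 5' ends. The peak lies between mrg-1 and spcs-2, a gene for a signal peptidase subunit that starts on the other strand 374 bp away. The summit was 133 bp from the 5' end of spcs-2 and thus nearer to it than to mrg-1. A further ranked peak lay in a coding exon of mrg-1, 1730 bp into the gene, with 23.4 in replicate 1 and 23.9 in replicate 2, and its −log10 IDR of 1.61 fell short of 2.

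The gene arid-1 (WBGene00044689, chromosome V, 186167 to 201297, plus strand) encodes the tagged protein itself, with an AT-rich interaction domain, and had no conservative summit. The nearest one lay 59407 bp from any of its 5' ends. The annotation gives arid-1 9 transcripts with 6 distinct 5' ends, and 6 ranked peaks of the series lay within 500 bp of one of them. The best lay in an intron, 373 bp upstream of an internal 5' end and 749 bp downstream of the outermost one. Signal there was 22.1 in replicate 1 and 22.3 in replicate 2, a mean of 22.2 ± 0.101 (SD, n = 2), with replicate summits 61 bp apart. Its −log10 IDR of 1.40 was reached or passed in the promoter windows of 8.37% of protein-coding genes. A gene with several 5' ends has more sequence in its windows, so this share compares unlike lengths.

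SIN-3 is the scaffold of its complex, and ATHP-1 is a PHD finger protein. Neither sin-3 nor athp-1 held a conservative summit at a 5' end or inside the gene, and the nearest lay 5461 bp and 4059 bp from their 5' ends. The best ranked peak at a sin-3 5' end lay 147 bp downstream in a coding exon, with 15.9 in replicate 1, 18.3 in replicate 2 and a −log10 IDR of 0.70. A peak in a coding exon 250 bp before the far end of sin-3 had 17.0 in replicate 1, 28.2 in replicate 2 and a −log10 IDR of 1.07. That end of sin-3 overlaps the gene F02E9.5 on the other strand by 59 bp. At athp-1 the best peak lay in an intron, 119 bp upstream of an internal 5' end, with 16.3 in replicate 1, 23.2 in replicate 2 and a −log10 IDR of 0.91. Both replicates' ranked lists thus held peaks at these genes, below the threshold that the series uses.

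The class I deacetylases hda-1, hda-2 and hda-3 encode the catalytic subunits, and none held a conservative summit at its 5' end. The window of hda-1 held no ranked peak of the series, and neither did the gene body. Replicate 1's ranked list had a single peak inside hda-1, with a signal of 10.2, and replicate 2's had none. Among all protein-coding genes, 58.4% had a ranked peak in the window, as did 9 of the 10 deacetylase complex genes, all but hda-1. Genes with several 5' ends, such as arid-1 with 6 and lin-40 with 3, have more sequence in their windows. The nearest conservative summit was 56638 bp from the hda-1 5' end.

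In hda-2 (WBGene00001835, chromosome II, 8020780 to 8022561, minus strand), 2 conservative summits lay at the far end of the gene, 1647 bp and 1438 bp downstream of the 5' end. The first was in the annotated 3' UTR and the second in a coding exon. At the first, signal was 36 in replicate 1 and 32.4 in replicate 2, a mean of 34.2 ± 2.51 (SD, n = 2), and the −log10 IDR was 2.72. The replicates' own summits there, at 8020796 and 8020980, were 184 bp apart, on either side of the series summit at 8020914. Their close signals may thus come from different positions. The second peak overlapped no ranked peak of replicate 1 and overlapped the same peak of replicate 2, at 32.4. The intervals of these peaks overlap each other, and the series list gave them signals of 41.6 and 7.58, so they are not separate measurements. By series signal they ranked 2235 and 2286 of 2306 nuclear peaks, while by replicate mean the first ranked 1497 of 2261. Neither peak was in a replicate's own thresholded list, and neither was called in the other thresholded list of the series. The gene end overlaps zyg-11, on the other strand, by 6 bp.

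The 5' end of hda-2 lies 70 bp downstream of swsn-7, and that of hda-3 lies 93 bp downstream of fdps-1, both on the same strand. In worms such short gaps are common in operons, where several genes share a promoter at the first gene. Neither swsn-7 nor fdps-1 was called at its own 5' end. Whether either pair lies in an operon, and which gene would come first in it, was not examined. The best ranked peaks in the windows of hda-2 and hda-3 had −log10 IDR values of 0.55 and 0.17, in the 3' UTR of swsn-7 and a coding exon of fdps-1, and no ranked peak of a replicate overlapped them. Inside hda-3 the best peak lay in an intron with 16.3 in replicate 1, 13.9 in replicate 2 and a −log10 IDR of 0.45.

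**Figure D2:**
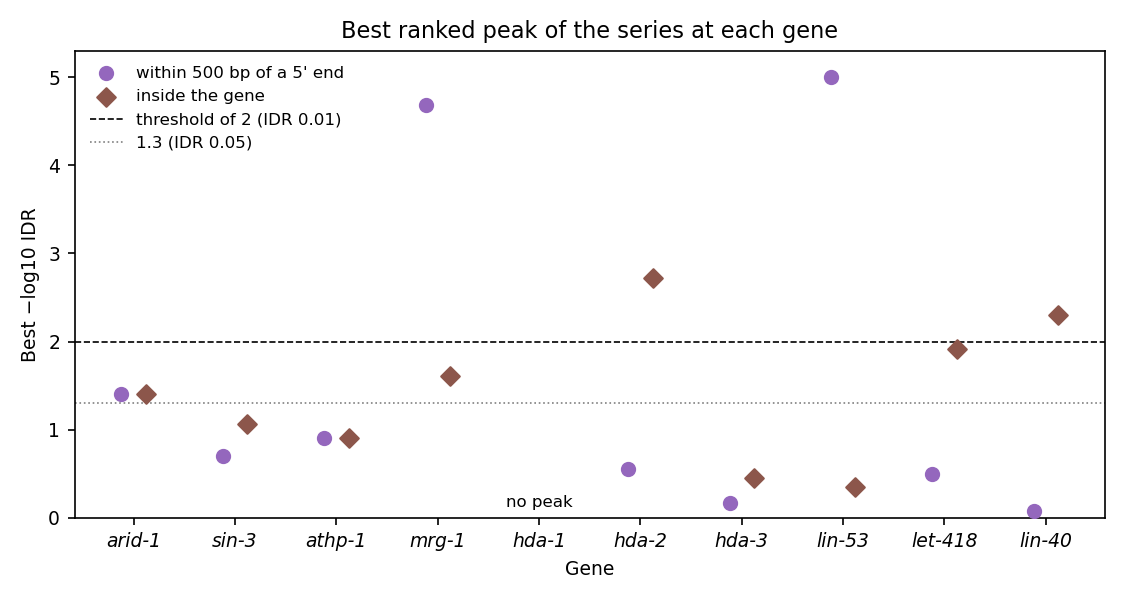
Best −log10 IDR among ranked peaks of the series at each of the 10 genes, within 500 bp of a 5' end (purple circles) and inside the gene (brown diamonds). The dashed line is the threshold of 2 and the dotted line is 1.3. Purple circles pass 2 at mrg-1 and lin-53 only among these genes, brown diamonds pass it at hda-2 and lin-40, and let-418 lies just under it at 1.92.

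The histone-binding gene lin-53 (WBGene00003036), shared by NuRD and other complexes, had the highest signal of the 10 genes. Its peak is at 9619942 to 9620062 on chromosome I, with the summit 210 bp upstream of the 5' end in intergenic sequence. Signal was 96.6 in replicate 1 and 125 in replicate 2, a mean of 111 ± 19.8 (SD, n = 2), and the −log10 IDR was 5.00, the highest value the list gives. By its signal of 212 in the series list, the peak ranked 43 among the 1045 at protein-coding 5' ends and 75 among all 2306 nuclear peaks, and it was in both replicates' thresholded lists. The lowest replicate value at lin-53 was above the highest at mrg-1, so these peaks differed by more than the replicates did. Peaks at 5' ends had a median mean signal of 39.7, with quartiles of 32.9 and 52.7.

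Like the peak at mrg-1, that of lin-53 lies between 2 genes that start in opposite directions. The neighbour is nra-2, across a gap of 466 bp, and the series summit was 257 bp from its 5' end and so nearer to lin-53. The replicates' own summits were 44 bp apart, and that of replicate 2, at 9620002, was nearer to nra-2. Of the 1045 peaks at 5' ends, 17.3% lie between such a divergent pair. On its other side, lin-53 is followed 88 bp downstream and on the same strand by rba-1, which encodes a second histone-binding protein of the same family. No summit was called at rba-1, and its best ranked peak in the window had a −log10 IDR of 0.35.

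LET-418 is a Mi-2 remodeller and LIN-40 an MTA subunit of worm NuRD. At let-418 the highest peak lay in a coding exon 3633 bp downstream of the 5' end, with 23.4 in replicate 1 and 28.7 in replicate 2, a mean of 26.0 ± 3.79 (SD, n = 2). Its −log10 IDR of 1.92 was the closest to the threshold of the peaks that missed it here, and the replicates' summits were 5 bp apart. The best peak at the let-418 5' end reached 0.50, and no ranked peak of a replicate overlapped it. At lin-40 (WBGene00003025, chromosome V, 3704988 to 3712796, plus strand) the conservative peak, at 3712352 to 3712621, lay in a coding exon 309 bp before the far end of the gene, with 39.2 in replicate 1 and 26.5 in replicate 2, a mean of 32.9 ± 8.95 (SD, n = 2). Its −log10 IDR of 2.3 was the closest to the threshold of those that passed, and the peak was in the thresholded list of replicate 1 and absent from that of replicate 2. It ranked 1714 of 2306 nuclear peaks by series signal and 1626 of 2261 by replicate mean. The summit was 6942 bp downstream of the nearest lin-40 5' end and 3482 bp downstream of that of nrsn-1, and so nearer to nrsn-1. The 5' windows of lin-40 held 2 ranked peaks of the series, with a best −log10 IDR of 0.08. The one of higher series signal overlapped no ranked peak of a replicate, and the other only a replicate 2 peak of 6.59.

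The conservative summits of hda-2 and lin-40, 3 in number with the overlapping hda-2 peaks counted separately, lay within 500 bp of the 3' end of the gene. They come from 2 genes, and hda-2 is only 1782 bp long, so much of it beyond the 5' window lies that close to its 3' end. Among 632 cases of a conservative summit inside a protein-coding gene and outside its 5' windows, 30.1% lay as close to the 3' end. In both genes this end overlaps a gene on the other strand, by 6 bp with zyg-11 and by 18 bp with nrsn-1. The far end of sin-3, which had no conservative summit, does so too, and the share of all genes with such an overlap was not counted.

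**Figure D3:**
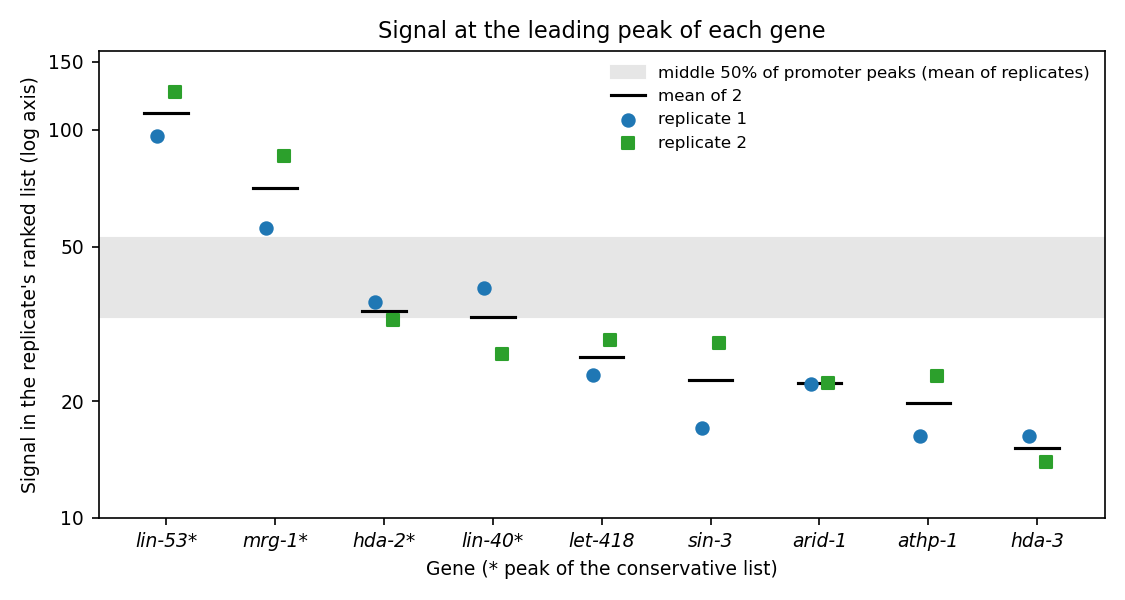
Signal in each replicate's ranked list (log axis) at 1 peak per gene, for the 9 genes with a peak found in both replicates. For starred genes it is the conservative peak, for the others the ranked peak of highest −log10 IDR. Blue circles are replicate 1, green squares replicate 2, black bars their mean, and the grey band spans the quartiles of mean signal at promoter peaks. The values of lin-53 and mrg-1 lie above the band, and those of let-418, sin-3, arid-1, athp-1 and hda-3 below it. At hda-2 and at lin-40, replicate 1 lies inside the band and replicate 2 below it, with the wider gap at lin-40.

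Across the genes, the order of mean signal at the leading peak was lin-53, mrg-1, hda-2, lin-40, let-418, sin-3, arid-1, athp-1 and hda-3. Replicate values of lin-53 and of mrg-1 did not overlap with each other or with those of any lower gene. The values of hda-2 and lin-40 overlapped, as did those of lin-40 and let-418. Values of let-418, sin-3, arid-1 and athp-1 overlapped from each to the next in the order, except that those of arid-1 lay within the range of sin-3. The highest hda-3 value and the lowest athp-1 value were both 16.3 as rounded. Replicate 2 was the higher at lin-53, mrg-1, let-418, sin-3, arid-1 and athp-1, and replicate 1 at hda-2, lin-40 and hda-3.

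At the looser threshold of 1.3, an IDR of 0.05, 3 of the 10 genes had a peak at a 5' end, against 8.96% of all protein-coding genes. The added gene was arid-1. With ranked peaks inside the gene counted too, it was 6 of 10, with arid-1 and let-418 added, against 13.1% of all genes. The added genes are 15131 bp (arid-1) and 5999 bp (let-418) long, and gene length was not matched.

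Sequence within 100 bp of the 5 conservative summits held 5 of the 9 motifs. At the 5' end peaks, GATAA was found at lin-53 and is in 28.5% of the 1045 windows at 5' ends, and mrg-1 had no match. GAGAG, in 47.3% of those windows, was at neither. Inside genes, the first hda-2 summit had the TATA-box motif, in 14.1% of windows at 5' ends, the splice acceptor motif, in 21.8%, and the AT-rich motif, in 20.9%. The second had the pyrimidine run, in 19.3%, and lin-40 had no match. Summits inside genes are set here against windows at 5' ends, which are another kind of sequence. The GC share was 45.3% at lin-53 and 42.3% at mrg-1, near the promoter median of 43.3%, and 38.3% at lin-40. At hda-2 it was 34.8% and 39.3%. A motif match here describes the letters of a window.

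Related genes were read from 5 further lists, fixed by symbol with earlier results known. Of their 29 genes, 6 had a summit at a 5' end (20.7%) and 7 at a 5' end or inside the gene (24.1%), beside the 6.12% and 8.34% of all genes given above. Among other NuRD and MEC genes (the MEC complex joins LET-418, HDA-1 and MEP-1), 2 of 5 were called, egl-27 and mep-1. Among other deacetylases 1 of 9 was called, hda-6, and among acetyltransferases 2 of 7, hat-1 and pcaf-1. CoREST and demethylase genes had 0 of 5. Among 3 further genes for AT-rich interaction domain proteins, rbr-2 was called at a 5' end and let-526 inside the gene. The 2 peaks in introns of let-526 were in both replicates' thresholded lists. The first had 57.7 in replicate 1 and 64 in replicate 2, and the second had 32 and 50.

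The highest of these peaks at a 5' end was that of hat-1, a histone acetyltransferase gene, with 92.1 in replicate 1 and 83.0 in replicate 2 (87.5 ± 6.46, SD, n = 2). It lay between lin-53 and mrg-1 in mean signal, 218 bp upstream of hat-1 and within an intron of M03C11.3. A second conservative peak lay in the 3' UTR of hat-1, 249 bp upstream of chl-1, with 27.1 in replicate 1 and 33 in replicate 2. At egl-27, which encodes an MTA-like protein, the summit lay 378 bp downstream of an internal 5' end, with 31.5 in replicate 1 and 71.6 in replicate 2 (51.5 ± 28.3). These replicates differed by 1.18 on the log2 scale, and the peak was in the thresholded list of replicate 2 only. At mep-1, a zinc finger gene, signal was 32.0 and 29.8 in replicates 1 and 2, at a summit 198 bp upstream that lies in exons of the non-coding genes M04B2.11 and M04B2.13. The peak at hda-6 lies 22 bp upstream of it and 231 bp from F41H10.4 on the other strand, with 41.3 in replicate 1 and 27.3 in replicate 2. The peak at pcaf-1 had 28.9 in replicate 1 and 40.7 in replicate 2, and that of rbr-2 43.8 and 39.6. The series list gave the rbr-2 peak a signal of only 2.03, while its replicate values are near the promoter median.

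The sequences at hat-1, egl-27 and mep-1 are shown as examples of called peaks at 5' ends of related genes, chosen after their values were seen. Motifs at the other called related peaks were not read out one by one. The hat-1 sequence is the whole peak at chrIII:10407413-10407505, and the others are 101 bp around the summit, at chrII:6842732-6842832 for egl-27 and chrIV:11524394-11524494 for mep-1, from the plus strand of the same assembly. Capitals mark matches to the 9 motifs.
hat-1: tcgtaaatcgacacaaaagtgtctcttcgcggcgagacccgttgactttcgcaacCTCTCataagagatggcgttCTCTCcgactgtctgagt
egl-27: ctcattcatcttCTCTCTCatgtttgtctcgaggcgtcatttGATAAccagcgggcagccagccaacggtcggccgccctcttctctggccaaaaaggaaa
mep-1: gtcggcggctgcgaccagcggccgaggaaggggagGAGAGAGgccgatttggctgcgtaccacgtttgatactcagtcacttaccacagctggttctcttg
Each of the 3 sequences holds GAGAG, which is in 33.8% of the 101 bp windows at the 1045 peaks at 5' ends. In hat-1 and egl-27 the GAGAG matches are on the minus strand, and in egl-27 and mep-1 they overlap. The egl-27 sequence also holds GATAA. GC made up 60.4% of the mep-1 sequence, 53.5% of egl-27 and 50.5% of hat-1. For the 101 bp windows at the 1045 peaks the median was 48.5%, and the hat-1 sequence is shorter than these.

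**Figure D4:**
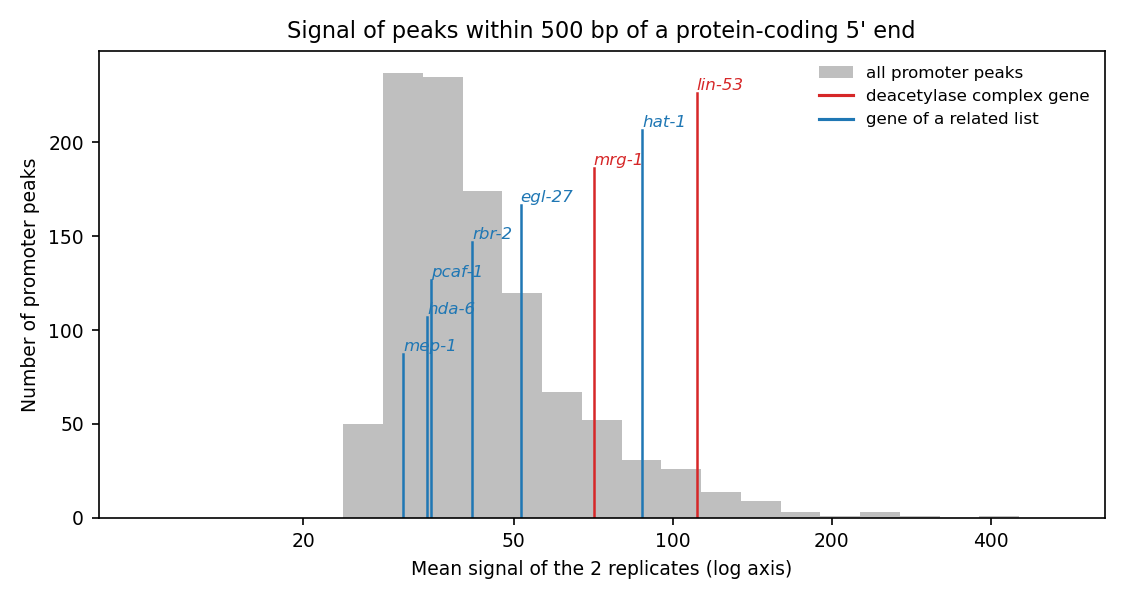
Number of conservative peaks within 500 bp of a protein-coding 5' end by their mean signal over the 2 replicates (log axis). Red lines mark the deacetylase complex genes called at a 5' end and blue lines the called genes of the related lists. The lines of lin-53, hat-1 and mrg-1 stand in the upper tail of the grey bars. Those of mep-1, hda-6 and pcaf-1 stand below the median of 39.7, and mep-1 also below the lower quartile of 32.9.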

How the data were processed

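Peaks on ce11 were deposited as 8 lists, per the file notes deposited with the samples. Each replicate has a ranked and a thresholded list, and the series has 2 of each kind made from both replicates. No source used here names the aligner or the peak caller. The authors' lists give a signal per peak, used as deposited, and a summit. The deposited ranked lists also give the −log10 IDR. The ranked list used here, of 77384 peaks, holds all 2330 conservative peaks at 2 or above, while the other holds 1918 of them so.

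Summits were compared with WBcel235 gene models of Ensembl release 115. No conservative peak ended beyond its chromosome. A replicate's signal is the highest among its ranked peaks that overlap by at least 1 bp. The members, lists and motifs were chosen with earlier results of these data known. Genes named are the members, the nearest gene at each of their peaks, their neighbours, and called genes of related lists. The neighbours were added after values were seen. The code for calls at 5' ends was checked on simulated summits against the same distance rule. This check does not bear on the annotation or on calls inside genes. Python 3.11.15, numpy 2.4.6 and scipy 1.17.1 were used. The replicates come from separate biosamples, per the labels. Alternatives concerned window size, 5' ends, summit or interval, peak list, assignment to the nearest gene and each replicate's own list.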

Additional observations from a re-analysis of the deposited data

How the results depend on the processing

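Under the 10 alternatives tried for each count, mrg-1 and lin-53 stayed called at a 5' end, with 1 exception. With each series summit given to the nearest 5' end, 1 gene was left, lin-53, since the mrg-1 summit went to spcs-2. At lin-53 the replicate 2 summit was nearer to nra-2, so that call depends on the series summit. Under the nearest 5' end assignment 4.96% of all genes were called, against 6.12%. The lin-40 summit, inside the gene, was nearer to the 5' end of nrsn-1. At 5' ends or inside the gene, 2 genes were left under that assignment, hda-2 and lin-53, with 6.35% of all genes, and 2 among the 1165 peaks of higher signal, mrg-1 and lin-53, with 4.5% of all genes, against 4 genes and 8.34%. With 1 replicate's own list the count was 2 to 3, since lin-40 was called without replicate 2 and hda-2 in neither, with 4.53% and 4.59% of all genes called. The related lists had 2 genes called at 5' ends among the peaks of higher signal and 1 to 2 in a single replicate's list, against 6 in the conservative list. Of all genes, 3.3% were called at 5' ends among the peaks of higher signal, and 3.27% and 3.3% in the lists of replicates 1 and 2. Of genes without a call, arid-1 reached 1.3 in the main windows, and 0 did so with 250 bp windows, an alternative added after the data were seen. The median signal rank of the conservative peaks at these genes was 74.3% of nuclear peaks by series signal and 38.9% by replicate means, which leave out the second hda-2 peak. Median signal was 47.5 to 59.2 with 1 replicate, against 52.5 with both. No paired analysis was possible because there is only 1 group. Depth is unknown, so a gene without a peak may still be bound at a level these lists do not show.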
